A study of Mus musculus with 6 samples.

Results

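The genes described here are Nr3c1, which encodes the glucocorticoid receptor, and 7 genes known for their place in glucocorticoid signalling: Hsd11b1, Fkbp5, Tsc22d3, Sgk1, Per1, Txnip and Ddit4. They were chosen by name, with earlier results of these data known. Each probe set of the array whose annotation gives 1 of these symbols was taken. A probe set is a group of short probes meant to report on 1 gene, though some kinds may also read other sequences. Its value is an intensity. The 8 genes, of 18193 named on the array, had 19 probe sets of 45037 that are not controls. RNA came from double negative thymocytes, early T cell precursors that carry neither CD4 nor CD8, described as sorted by flow cytometry from 3 wild type mice and from 3 mice lacking both Egr1 and Egr3. Each mouse is labelled as the source of 1 array. The titles, by contrast, name the whole thymus. The sources used here do not give strain, age, sex or how the genes were disrupted.

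The glucocorticoid receptor is a nuclear receptor that waits in the cytoplasm in a complex with HSP90 and its cochaperones. Corticosterone, the main glucocorticoid of mice, binds the receptor, which then moves to the nucleus, binds DNA as a dimer and raises or lowers transcription of its target genes. Thymocytes are known for their sensitivity to this hormone, which stops their growth and can kill them. Several of the genes below also answer to other signals, such as growth factor loss, glucose, the circadian clock or stress, so that none of them reads the hormone alone.

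Some facts of the arrays touch the values below. Egr1 ranged from 455 to 509 in wild type arrays and from 1221 to 1757 in those labelled double knockout (log2 change 1.60, SE 0.24, limma adjusted p = 0.00312), which goes against the label. The brighter Egr3 probe set ranged from 30.8 to 92.2 and from 34.4 to 45.8 and did not pass (-0.59, SE 0.32, adjusted p = 0.368). The sources used here do not say whether these probe sets read the part of each gene that was disrupted, so every direction is stated for arrays by their label. Wild type replicate 3 stood apart. The 13 granulocyte and phagocyte markers on the array summed to an intensity of 1178 on it, against 12577 and 27443 for the other wild type mice and 20488 to 29166 for the labelled double knockouts, and 3 markers that were bright elsewhere, S100a8, S100a9 and Lcn2, lay at or below the brightest bacterial control there. Its 4 erythroid markers summed to 3828, against 31.2 to 416 on the other 5 arrays. Xist, expressed by female cells, and the Y-linked Eif2s3y were both well above the controls on wild type replicate 1 (1439 and 476) and in the 3 labelled double knockout samples (3910 to 6015 and 186 to 265), although 1 animal is named for each. Other Y-linked transcripts were less clear: Uty lay above the brightest bacterial control on wild type replicate 1 alone (63.7), and Kdm5d on that array (144) and on double knockout replicate 2 (29.5). Of the cell type lists, 7 mature T cell markers summed to 1620 to 2055 in wild type and 5603 to 5787 in labelled double knockout arrays. The 7 B cell markers summed to 1015 to 2003 and 2334 to 2871. Of 6 B cell markers tested, only Cd79b was higher (1.10, SE 0.27, limma adjusted p = 0.0337) and 5 did not pass. The 8 thymic epithelial markers summed to 454 to 2073 and 1090 to 3098, which overlap. The 11 genes listed for double negative thymocytes summed to 31623 to 39822 in wild type and 19505 to 20846 in labelled double knockout arrays. This list also holds Cd4, Cd8a and Cd8b1. Of the transcripts that the sorted cells should lack, Cd4 lay at or below the brightest bacterial control on the 6 arrays, whereas Cd8a (68.5 to 197) and Cd8b1 (65.9 to 137) lay above it on all 6. In such bulk RNA, fewer cells of a type and less RNA per cell cannot be told apart, and the part of these differences in the results below was not tested.

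Of the 19 probe sets, 15 passed the filter on dim values and were tested. Of these, 7 were higher in the arrays labelled double knockout, none was lower and 8 did not pass an adjusted p of 0.05 (limma, adjusted over 27022 probe sets, of which 2.91% were higher and 2.11% lower). The 7 belong to 5 genes: Tsc22d3, Sgk1, Per1, Txnip and Ddit4, all of them targets. Fkbp5, a cochaperone that is also a target, did not pass on any probe set, nor did the receptor or the enzyme Hsd11b1. The groups did not overlap in 10 of the 15 probe sets, each time with the arrays labelled double knockout above (12.3% of all tested probe sets did so). Because the genes were chosen with earlier results of these data known, both counts describe these genes and are no independent evidence of direction. One of the 15, the dimmer Txnip probe set, passed the filter through its double knockout arrays only. The count of 7 was 4 without wild type replicate 2 and 4 without double knockout replicate 1, and it was 7 without wild type replicate 3. At an unadjusted p under 0.05, 5069 probe sets of all tested differed, none of them a fall in these genes.

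**Figure D1:**
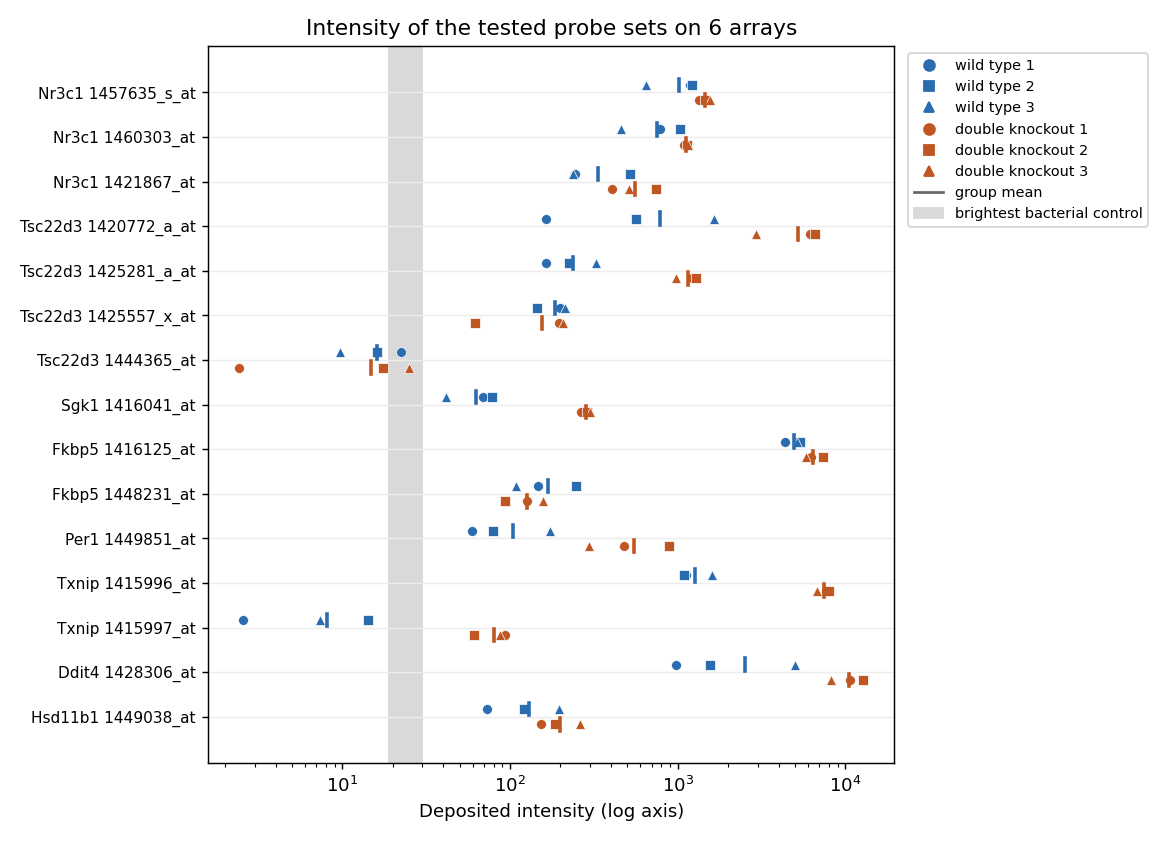
Deposited intensity (log axis) of the 15 tested probe sets on each of the 6 arrays, with the group mean as a vertical bar and the range of the brightest bacterial control in grey. The groups stand apart for Sgk1, Per1, Ddit4, both Txnip probe sets and 2 of the 4 Tsc22d3 probe sets, while those of Nr3c1, Fkbp5 and Hsd11b1 lie close together or overlap.

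The receptor gene itself had 6 probe sets, 3 of them tested. The brightest, 1457635_s_at, read 1182, 1219 and 645 on wild type arrays against 1342, 1450 and 1555 on those labelled double knockout. Wild type replicate 3 was the lowest of the 6, and the other wild type arrays lay just under the lowest array labelled double knockout. The log2 change was 0.54 (SE 0.28, limma adjusted p = 0.327, 95% interval -0.06 to 1.15). Probe set 1460303_at read 785, 1028 and 457 against 1095, 1135 and 1157, with a log2 change of 0.62 (SE 0.30, adjusted p = 0.291, interval -0.03 to 1.27). On 1421867_at the intensities were 243, 522 and 238 against 405, 748 and 511, and the groups overlapped (0.74, SE 0.34, adjusted p = 0.279, interval -0.02 to 1.49). All 3 thus gave estimates above 0 that missed the threshold, with intervals that reach a rise of more than 1 on the log2 scale. Without wild type replicate 3 the estimates were 0.24, 0.30 and 0.54, and none passed. The other 3 Nr3c1 probe sets and 1 of Fkbp5 lay under the filter, with intensities between 0.42 and 29.3 on all arrays and log2 changes between -0.17 and 0.40 in the fit without the filter.

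Hsd11b1 encodes 11-beta-hydroxysteroid dehydrogenase type 1, the enzyme that regenerates active glucocorticoid from its inert keto form inside cells. Its single probe set read 73.0, 120 and 196 on wild type arrays against 154, 185 and 260 on those labelled double knockout. Wild type replicate 3 lay above 2 of the arrays labelled double knockout, so the groups overlapped. The log2 change of 0.61 (SE 0.33, limma adjusted p = 0.368, interval -0.12 to 1.33) did not pass, and it ran from 0.27 without wild type replicate 1 to 0.91 without wild type replicate 3, short of the threshold in both cases.

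Fkbp5 encodes FKBP51, an HSP90 cochaperone that lowers the receptor's affinity for hormone and is itself a widely used target gene of the receptor, closing a feedback loop. Its probe set 1416125_at read 4389, 5363 and 5180 on wild type arrays against 6234, 7338 and 5822 on those labelled double knockout. The groups did not overlap, yet the step between them was small, with a log2 change of 0.36 (SE 0.19, limma adjusted p = 0.352, interval -0.06 to 0.77). Probe set 1448231_at, annotated with the same sequence record, read 148, 248 and 109 against 126, 93.6 and 157, with a log2 change of -0.35 (SE 0.32, adjusted p = 0.628). The 2 estimates have opposite signs, but that of 1448231_at was -0.03 without wild type replicate 2. Their difference of 0.71 gave p = 0.2 (exact two-sided permutation test over arrays, smallest possible p 0.1).

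Tsc22d3 encodes GILZ, a leucine zipper protein that mediates part of the anti-inflammatory action of glucocorticoids, and it lies on the X chromosome. Its 4 probe sets, each annotated with a different sequence record, were all tested and fell into 2 pairs. The brightest, 1420772_a_at, read 163, 562 and 1638 on wild type arrays against 6169, 6577 and 2925 on those labelled double knockout. The wild type arrays spanned a wide range, and the lowest array labelled double knockout, replicate 3, was still above wild type replicate 3. The log2 change was 3.13 (SE 0.62, limma adjusted p = 0.0145). Probe set 1425281_a_at read 163, 225 and 326 against 1215, 1287 and 979, with much less spread inside each group, and a log2 change of 2.23 (SE 0.28, adjusted p = 0.00113).

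The other pair of Tsc22d3 probe sets did not show this rise. Probe set 1425557_x_at, of the kind whose probes may also read other sequences, read 199, 144 and 212 on wild type arrays against 197, 62.1 and 208 on those labelled double knockout. The 2 groups overlapped apart from the low double knockout replicate 2, and the log2 change was -0.38 (SE 0.38, limma adjusted p = 0.667, interval -1.21 to 0.46). That interval leaves out changes of the size seen on the first pair. Probe set 1444365_at lay at or below the brightest bacterial control on every array, between 2.42 and 24.8, so its change of -0.13 (SE 0.34) describes a signal not above that control. The rise on 1425281_a_at exceeded that on 1425557_x_at by 2.61 on the log2 scale, and that on 1420772_a_at exceeded it by 3.51, each with p = 0.1, the smallest an exact two-sided permutation test of 3 against 3 arrays allows (0.275 after adjustment over 11 pairs of probe sets). The change on 1420772_a_at was larger than on 1425281_a_at by 0.90, which did not exceed the spread (p = 0.2, same exact test). On control probe sets the ratio of 3′ to 5′ signal, a measure of how complete the amplified RNA was, ran from 4.83 to 10.1 for Gapdh and from 5.55 to 8.94 for Actb in wild type, and from 4.95 to 8.56 and from 4.98 to 6.35 on the others. Wild type replicate 1, which had the highest ratio for both genes, also had the lowest reading on 1420772_a_at. The part of RNA quality in the disagreement was not tested.

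**Figure D2:**
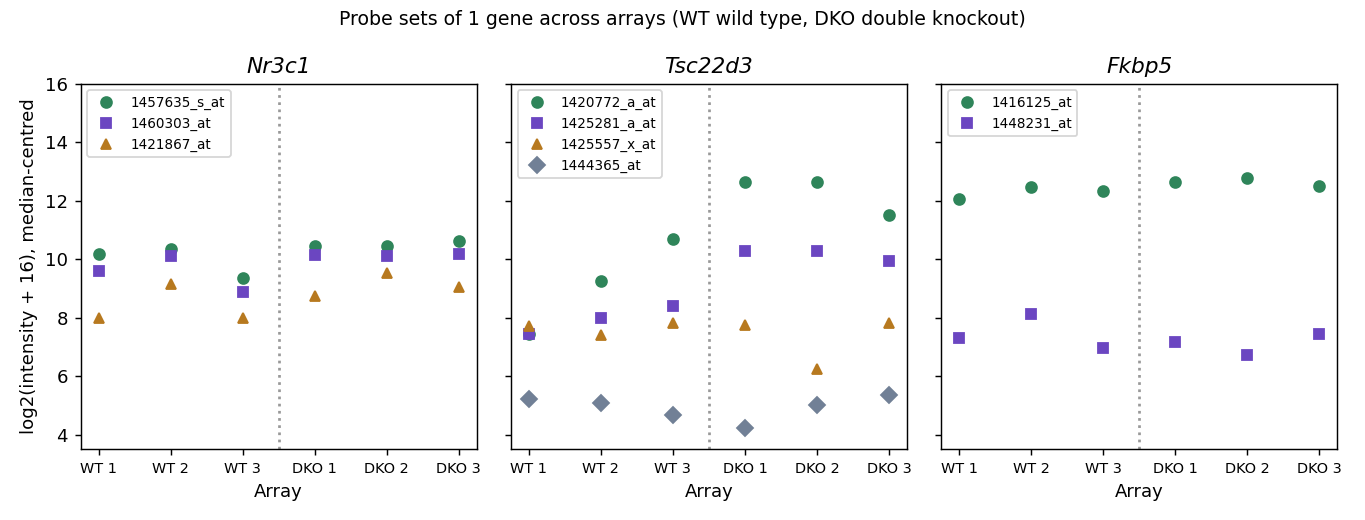
Median-centred log2(intensity + 16) of the tested probe sets of Nr3c1, Tsc22d3 and Fkbp5 on each array, 1 symbol for each probe set. Tsc22d3 probe sets 1420772_a_at and 1425281_a_at are higher on the arrays labelled double knockout, and 1425557_x_at and 1444365_at are not. The 3 Nr3c1 probe sets keep their order and are lowest or near lowest on wild type replicate 3.

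Sgk1 encodes a serum- and glucocorticoid-induced kinase that acts on ion channels and forkhead factors. It is shown with its sequence because a full glucocorticoid response element lies near 1 of its starts. Its single probe set read 68.9, 78.5 and 41.2 on wild type arrays against 266, 288 and 302 on those labelled double knockout. The arrays labelled double knockout lay close together and far above the others, and here wild type replicate 3 was the lowest. The log2 change was 1.95 (SE 0.26, limma adjusted p = 0.00179), with group means of 62.9 ± 19.4 and 285 ± 17.9 (intensity and SD, n = 3 each).

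Promoter windows from RefSeq on GRCm38.p6, reaching 250 bases before and 50 after an annotated start, were searched on both strands for the full response element (AGAACA and TGTTCT with any 3 bases between) and for 1 arm of it alone, AGAACA. Windows were used for 7 of the 8 genes, 15 windows in all. The chromosome of Nr3c1 was left out of this set, so the receptor gene itself was not searched. The full element was found in 3 of 32851 windows of the table (0.00913%), namely those of Acnat2, Gm35041 and 1 of 6 Sgk1 starts. The single arm was found in 19.0% of all windows and in 4 of the 15. In the Sgk1 window the full element begins 189 bases before the start. The 250 bases before that start and before the Tsc22d3 start with a single arm are printed 5′ to 3′, with the matches in capitals (the run of capitals near the left end of the Sgk1 sequence is an E box, CACGTG, that overlaps a single arm).
Sgk1 at chr10:21993640-21993889, plus strand: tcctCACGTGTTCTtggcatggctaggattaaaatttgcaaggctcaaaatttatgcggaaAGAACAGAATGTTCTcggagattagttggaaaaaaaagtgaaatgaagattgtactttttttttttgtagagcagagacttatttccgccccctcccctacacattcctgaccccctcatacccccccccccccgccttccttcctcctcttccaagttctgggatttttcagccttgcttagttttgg
Tsc22d3 at chrX:140600523-140600772, minus strand: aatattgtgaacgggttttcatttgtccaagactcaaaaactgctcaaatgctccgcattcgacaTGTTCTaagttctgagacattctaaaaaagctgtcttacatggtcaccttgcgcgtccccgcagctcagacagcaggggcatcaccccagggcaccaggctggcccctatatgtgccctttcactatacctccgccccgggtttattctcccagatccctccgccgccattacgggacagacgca
The other 2 Tsc22d3 windows and those of Fkbp5, Per1, Txnip, Ddit4 and Hsd11b1 hold neither form of the element, which says only that these letters are not in these windows. Which Sgk1 or Tsc22d3 start gave the RNA on the arrays is not known from the probe sets.

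Per1 encodes a core repressor of the circadian clock that glucocorticoids also induce. Its single probe set read 59.3, 79.5 and 173 on wild type arrays against 478, 883 and 297 on those labelled double knockout. Both groups spread widely, with wild type replicate 3 the highest of its group and double knockout replicate 3 the lowest of the other, and they did not overlap. The log2 change was 2.21 (SE 0.41, limma adjusted p = 0.00986). The time of day at which tissue was taken, on which Per1 is known to depend, is not stated in these sources.

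Txnip encodes the thioredoxin-interacting protein, which binds thioredoxin and limits glucose uptake, and is known to be induced by glucose and by glucocorticoids. Its brighter probe set, 1415996_at, read 1119, 1095 and 1613 on wild type arrays against 7671, 8043 and 6756 on those labelled double knockout. The lowest array labelled double knockout was far above the highest wild type array, and the log2 change of 2.54 (SE 0.22, limma adjusted p = 8.69e-05) had the smallest p of the 15 probe sets. The dimmer probe set, 1415997_at, annotated with the same record, read 2.55, 14.3 and 7.35 against 93.0, 61.3 and 87.2. All 3 wild type values lay below the brightest bacterial control, so the level there is known only as a bound, and the rise was at least 3.18-fold, taken as the mean log2 intensity of the arrays labelled double knockout over that of the brightest control on each wild type array. Its change in the fit was 2.00 (SE 0.29, adjusted p = 0.00274), a size that depends on the offset (3.35 with an offset of 1 and 0.99 with 64).

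Ddit4 encodes REDD1, an inhibitor of the growth kinase complex mTORC1 that rises with hypoxia, energy stress and glucocorticoids. Its probe set read 976, 1550 and 5030 on wild type arrays against 10736, 12775 and 8251 on those labelled double knockout. Wild type replicate 3 was the highest of its group by a wide margin and double knockout replicate 3 the lowest of the other, with a gap left between them. The log2 change was 2.38 (SE 0.46, limma adjusted p = 0.0122).

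The E box CACGTG, the element through which clock proteins act on Per1, and the forkhead letters GTAAACA were searched in the same windows, both chosen after the sequences had been seen. The E box is in 7.15% of all windows and in 3 of the 15, those of Fkbp5, Per1 and the Sgk1 start printed above. The forkhead letters are in 3.65% of all windows and in 2 of the 15, those of Txnip and Hsd11b1. The Per1 and Txnip stretches are printed in the same way, as examples of target genes that rose and whose windows hold neither form of the element searched.
Per1 at chr11:69098699-69098948, plus strand: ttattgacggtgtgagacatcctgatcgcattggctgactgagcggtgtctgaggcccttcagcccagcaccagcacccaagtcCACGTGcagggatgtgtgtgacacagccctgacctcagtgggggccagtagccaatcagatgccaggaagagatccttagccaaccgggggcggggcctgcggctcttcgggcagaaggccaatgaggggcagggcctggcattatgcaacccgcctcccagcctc
Txnip at chr3:96557707-96557956, plus strand: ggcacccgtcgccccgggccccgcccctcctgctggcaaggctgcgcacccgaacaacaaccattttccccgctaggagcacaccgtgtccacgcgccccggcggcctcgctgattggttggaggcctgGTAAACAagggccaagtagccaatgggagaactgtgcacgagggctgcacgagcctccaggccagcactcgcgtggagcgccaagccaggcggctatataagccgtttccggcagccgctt
In the Per1 sequence the E box begins 166 bases before the start, and in that of Txnip the forkhead letters begin 121 bases before it. A match of this kind is a description of the letters.

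The 7 rises differed in whether the call held when 1 array was left out. Those of Sgk1, of both Txnip probe sets and of Tsc22d3 1425281_a_at passed when any 1 of the 6 arrays was left out, with limma adjusted p up to 0.0161, 0.0258 and 0.0147. For the dimmer Txnip probe set this says little, since it was tested only through its arrays labelled double knockout. Tsc22d3 1420772_a_at did not pass without wild type replicate 2 (3.19, adjusted p = 0.0678), double knockout replicate 1 (2.95, adjusted p = 0.0748) or double knockout replicate 2 (2.95, adjusted p = 0.0664). Ddit4 was lost without the same arrays (2.24, adjusted p = 0.0724; 2.33, adjusted p = 0.0616; 2.25, adjusted p = 0.0567), and Per1 without wild type replicate 2 (2.13, adjusted p = 0.0596) or double knockout replicate 1 (2.22, adjusted p = 0.0524). On 6 arrays, Tsc22d3 1420772_a_at, Ddit4 and Per1 changed by 3.13, 2.38 and 2.21, close to the values in those fits. The share of all tested probe sets called higher was 2.91% with all arrays and 1.85% after dropping wild type replicate 2. It was 0.90% after dropping double knockout replicate 1, 1.48% after double knockout replicate 2 and 5.11% after wild type replicate 3. A lost call therefore does not show by itself that a rise rests on the array left out. Without wild type replicate 3, poor in granulocyte transcripts, the changes were larger: 3.91 for Tsc22d3 1420772_a_at, 3.04 for Ddit4 and 2.58 for Per1. On that array they stood 2.33, 1.99 and 1.13 above the mean of the other wild type arrays on the log2 scale, whereas Sgk1 stood 0.68 below it (-0.68) and the brightest Nr3c1 probe set 0.91 below (-0.91). Of the other called probe sets, Tsc22d3 1425281_a_at and the brighter Txnip probe set stood 0.69 and 0.51 above that mean, and the dimmer Txnip probe set at -0.05. The called probe sets thus lay on both sides of it on wild type replicate 3, most of them above. The cause was not tested.

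**Figure D3:**
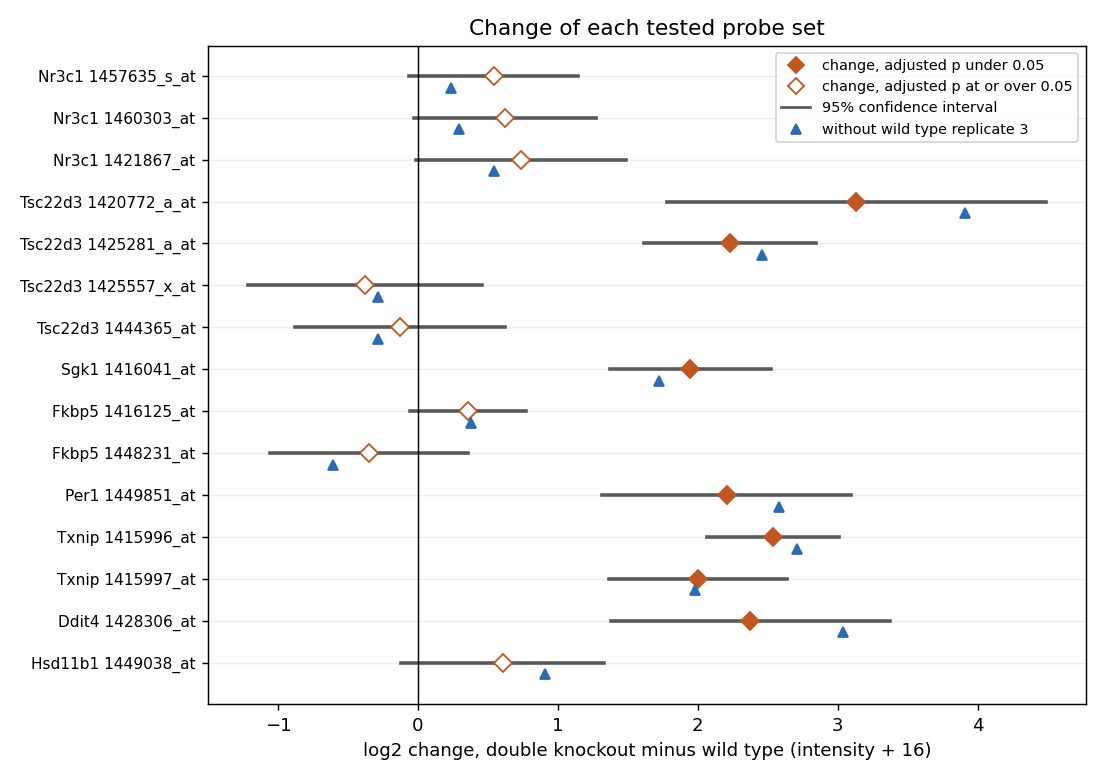
log2 change of the 15 tested probe sets (arrays labelled double knockout minus arrays labelled wild type) with 95% intervals, filled where the adjusted p was under 0.05, and the change without wild type replicate 3 as a triangle. The 7 filled symbols lie between 1.95 and 3.13, and the intervals of the other 8 include 0.

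Over the 6 arrays, the genes whose log2 values followed the brightest Nr3c1 probe set most closely were Ptger2 (Pearson r 1.00), Trpm1 (0.99) and Tle5 (0.99). They share with it a low reading on wild type replicate 3, for example 5.70 for Ptger2 against 36.9 to 70.1 on the other arrays. On that array Ptger2, Trpm1 and Tle5 (5.70, 6.68 and 5.18) lay below the brightest bacterial control (29.9). Their coefficients thus rest in part on a signal not above that control. For the brightest Tsc22d3 probe set they were Thnsl2 (1.00), Sit1 (1.00) and Zfand2b (1.00), each with the same order of groups as Tsc22d3 and with wild type replicate 3 highest in its group. Its coefficient was 0.99 with Ddit4, 0.96 with Per1, 0.90 with Txnip, 0.90 with Fkbp5, 0.78 with Hsd11b1, 0.74 with Sgk1 and 0.25 with Nr3c1. Fkbp5 and Hsd11b1, which did not pass the test, thus had higher coefficients than Sgk1, which did. With 6 arrays in 2 groups that differ, such coefficients mostly describe the step between groups and the place of wild type replicate 3.

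Other genes of the pathway were counted with 1 probe set for each gene, the brightest. At this level, of 13187 genes, 4.14% were called higher in labelled double knockout arrays and 2.84% were called lower, the median log2 change was -0.01, and 5 of the 8 genes described above were higher. Of 30 other genes known to be induced by glucocorticoids, 29 were tested, of which 13 were higher, 1 was lower and 15 did not pass (median log2 change 1.08). The list was drawn up with earlier results of these data known and is no independent evidence of direction. Without double knockout replicate 1 the count higher was 4, without wild type replicate 1 it was 8 and without double knockout replicate 3 it was 8. The share of all tested probe sets called higher was 0.90%, 1.60% and 1.61% in these fits, against 2.91% with all arrays. Without wild type replicate 3 that share was 5.11%, and the count was above 13. The summed level of the 7 mature T cell markers, given above, rose with this list. Il7r is in both lists. It made up 1091 of that sum of 1998 on wild type replicate 1, and 2990 of 5704 on double knockout replicate 1. Among 6 such markers tested, 4 were higher, Il7r being 1 of them, while Ccr7 and Cd5 did not pass. Of 6 tested markers of NK and cytotoxic cells, 3 were also higher, namely Nkg7 (2.96, SE 0.31, limma adjusted p = 0.000418), Klrd1 (1.82, SE 0.32, adjusted p = 0.00752) and Gzmb (1.45, SE 0.22, adjusted p = 0.00307). The summed level of all 7 such markers, most of it Gzma, ran from 11380 to 16292 in wild type and from 14289 to 15158 in labelled double knockout arrays. The part of either cell type in the count was not tested.

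The 4 of smallest p in that list all rose. Bcl2l11, which encodes the death promoter Bim through which glucocorticoids kill thymocytes, read 879, 1218 and 688 on wild type arrays against 3981, 4821 and 3416 on those labelled double knockout (log2 change 2.12, SE 0.26, limma adjusted p = 0.000929). Of its 4 dimmer probe sets 1 passed as well (1.88, SE 0.24). Glul, glutamine synthetase, read 852, 1493 and 1056 against 4382, 3567 and 4766 (1.90, SE 0.26, adjusted p = 0.00182), and its other probe set gave 1.88. Il7r, the interleukin 7 receptor chain on which early thymocytes depend, read 1091, 1079 and 843 against 2990, 2757 and 2913 (1.50, SE 0.21, adjusted p = 0.00225). Gpr65, an acid-sensing receptor first known as a gene of dying thymocytes, read 282, 239 and 427 against 1111, 915 and 1055 (1.67, SE 0.26, adjusted p = 0.0038). In none of these 4 genes did the groups overlap, which adds little for genes picked by smallest p. Of all tested probe sets, 12.3% did not overlap with the arrays labelled double knockout above. Each of the 4 genes passed when any 1 array was left out. The gene that fell was Cdkn1a, the p21 inhibitor of the cell cycle, with 322, 414 and 287 against 119, 155 and 212 (-1.04, SE 0.27, adjusted p = 0.045), a call that passed in 1 of the 6 fits with an array left out, that without wild type replicate 3. In the limma fit over probe sets the same Cdkn1a probe set did not pass (adjusted p = 0.0541), nor did the other probe set of this gene (-0.46).

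Among the chaperones that hold the receptor ready for hormone and the enzymes of steroid supply, 11 of 16 genes were tested: 2 were lower, none was higher and 9 did not pass (median -0.12). Hsp90aa1, the inducible HSP90 isoform, read 5951, 4713 and 3145 on wild type arrays against 1493, 1405 and 1903 on those labelled double knockout (-1.50, SE 0.26, limma adjusted p = 0.00682), and of its dimmer probe sets 1 of 3 also passed (-1.29). Fkbp4 encodes FKBP52, the cochaperone that favours hormone binding and competes with FKBP51. It read 1573, 1801 and 2182 against 806, 810 and 615 (-1.31, SE 0.23, adjusted p = 0.00762), while its 2 dim probe sets gave -0.04 and -0.64 and did not pass. Its call was lost with the replicate number as a block (adjusted p = 0.0528) and with the mean of its probe sets (-0.66, adjusted p = 0.0562). The enzyme Hsd11b2, which inactivates corticosterone, ranged from 16.8 to 27.2 in wild type and from 19.9 to 21.5 in labelled double knockout arrays, near the bacterial controls. Cyp11a1, which starts steroid synthesis, read 17.2, 34.9 and 69.6 against 64.7, 95.8 and 51.7 and did not pass (0.67, SE 0.35). Without wild type replicate 3, Cyp11a1 (1.02, adjusted p = 0.0474) and the HSP40 cochaperone Dnajb1 (1.02, adjusted p = 0.0146) were higher and 3 genes were lower, the third being the cochaperone Stip1 (-1.20, adjusted p = 0.0299).

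None of 13 receptor coregulators tested passed (median 0.07). The 2 of smallest p were the coactivator Ncoa2 (0.75, SE 0.26, limma adjusted p = 0.116) and the corepressor Nrip1 (0.72, SE 0.25, adjusted p = 0.126). Without wild type replicate 3 the methyltransferase gene Carm1 was lower (-1.50, adjusted p = 0.0112). Of 12 genes known to be repressed by the receptor 7 were tested, 1 was higher and none lower (median 0.41). This was Tnf, the inflammatory cytokine, which read 8.03, 10.2 and 5.15 in wild type, all below the brightest bacterial control, and 34.0, 33.3 and 39.7 on those labelled double knockout, at least 1.43-fold higher (adjusted p = 0.0308). Its wild type values lay under the filter, so that it was tested only through its arrays labelled double knockout. Its call passed in 1 of the 6 fits with an array left out, that without wild type replicate 3. The second smallest p in that list was that of the chemokine gene Ccl5 (0.85, SE 0.35, adjusted p = 0.186).

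**Figure D4:**
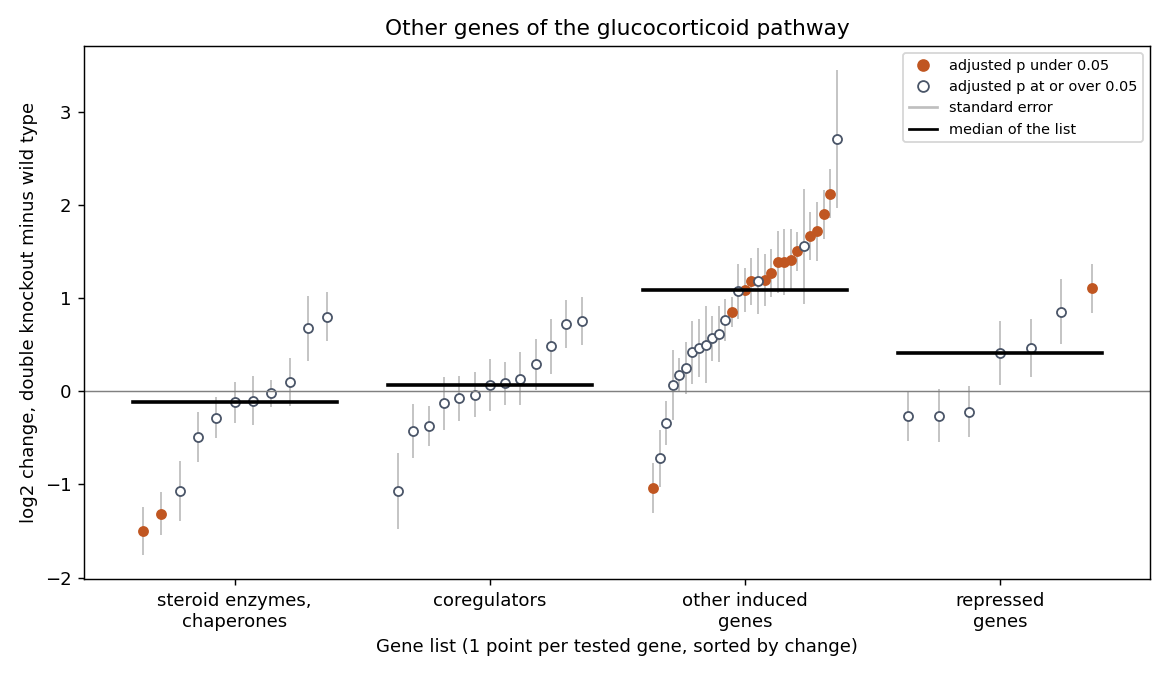
log2 change with standard error of each tested gene in 4 lists of the glucocorticoid pathway (11 steroid enzyme and chaperone genes, 13 coregulators, 29 other induced genes and 7 repressed genes), sorted within a list, filled where the adjusted p was under 0.05, with the list's median as a bar. The induced genes have a median of 1.08, whereas the medians of the other lists lie between -0.12 and 0.41.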

How the data were processed

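Single-colour arrays were run on 6 RNA samples, 3 in each group, per the labels. The deposited values are intensities on a linear scale, scaled to a common trimmed mean (150 over the middle 96% of values on each array). The columns had medians between 19.9 and 23.1. The sources used here do not say how probes were summarised, and no detection calls were used. The 27 probe sets for Bacillus subtilis genes served as background.

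Symbols come from the platform annotation, in which 34945 of 45037 probe sets have 1 symbol, 932 several and 9160 none here, updated by gene ID through RefSeq (GRCm38.p6, 34741 matched). Probe sets with several symbols were named for no gene. An offset of 16 was added, log2 taken and each array centred on its median. Changes are on this scale and understate those of dim genes. The dimmest probe sets, those averaging under the 40th percentile (intensity 13.2), were not tested. limma 3.58.1 (R 4.3.3; lmFit, eBayes with an intensity trend) was followed by Benjamini-Hochberg adjustment. For counts of genes, the brightest probe set stood for a gene. With 3 arrays in a group, their number limits the precision.

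The members and lists were chosen with earlier results of these data known. Named genes are the 8 members, the targeted genes, up to 4 of smallest p in each list (2 where none passed) and the 3 most similar to Nr3c1 and to Tsc22d3. Ccl5, Cyp11a1, Hsd11b2, Dnajb1, Stip1 and Carm1 were named after their values were seen. Alternatives were other scalings, offsets, filters and variance models, weights for arrays, a block for replicate number, the mean of a gene's probe sets and each array left out.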

Additional observations from a re-analysis of the deposited data

How the results depend on the processing

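Over the 6 fits with 1 array left out, the count of higher member probe sets lay between 4 and 7 against 7, and it was within 1.5 times of 7 under the other alternatives. The share of all probe sets higher, 2.91%, was 6.55% with array weights, 4.52% with the filter at the 60th percentile, 1.25% without a filter, 1.46% with the replicate block and between 0.899% and 5.11% with 1 array left out. With 1 array left out, the counts per list were 4 to 16 (13) induced genes higher, 0 to 1 (1) induced lower, 0 to 2 (0) chaperone and steroid enzyme genes higher, 0 to 1 (0) coregulators lower and 0 to 1 (1) repressed genes higher, with the reported count in brackets. With array weights, 1 chaperone or enzyme gene was higher and 1 coregulator lower. With the mean of a gene's probe sets, 1 such gene was higher and 1 lower, and 0 induced genes were lower. The count of induced genes lower was also 0 with an offset of 1, without a filter and without an intensity trend, and that of repressed genes higher was 0 with the filter at the 60th percentile. The sign turned for probe sets that were not called: Tsc22d3 1425557_x_at had a change of 0.0065 with array weights and between -0.65 and 0.14 with 1 array left out (0.14 without double knockout replicate 2), and 1444365_at of 0.19 without double knockout replicate 1. The cause was not tested.

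Arrays of the same replicate number did not deviate together (r = -0.05, -0.13 and -0.29 over tested probe sets), and the labels name separate animals. With the replicate block, 7 member probe sets were higher, and 5 induced genes were higher and 0 lower, 1 chaperone gene was lower and 0 repressed genes were higher. Signals near the bacterial controls limit what can be said of Tsc22d3 1444365_at, the dimmer Txnip probe set, Tnf and Hsd11b2.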

Other observations

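Of the 13 other induced genes that were higher in the arrays labelled double knockout, 9 are not described above. They are named here after their values were seen. The transcription factor gene Klf9 read 171, 379 and 306 on wild type arrays against 1024, 1062 and 763 on those labelled double knockout (log2 change 1.72, SE 0.31, limma adjusted p = 0.00882). It was lost only without double knockout replicate 1 (adjusted p = 0.062), and 2 of its 3 dimmer probe sets passed as well. Nfkbia, the inhibitor of NF-kappaB, read 6345, 5948 and 5826 against 10905, 11804 and 10422 (0.85, SE 0.16, adjusted p = 0.00937), and 3 of its 4 dimmer probe sets passed with larger changes of 1.51, 1.66 and 1.88. Its call did not hold when the replicate number was a block (adjusted p = 0.051) or when double knockout replicate 1 was left out (adjusted p = 0.082).

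The other 7 passed in at most 3 of the 6 fits with an array left out. They were Pik3ip1, an inhibitor of PI3 kinase (1.27, SE 0.26), Rgs2, a regulator of G protein signalling (1.18, SE 0.25), Errfi1, an inhibitor of EGF receptors (1.08, SE 0.24), the chemokine receptor Cxcr4 (1.19, SE 0.28), the MAP kinase phosphatase Dusp1 (1.39, SE 0.33) and the metallothioneins Mt1 (1.41, SE 0.34) and Mt2 (1.39, SE 0.35). The metallothioneins share similar sequences, and their probe sets may read each other's RNA. Mt2 read 68.9, 65.1 and 95.5 on wild type arrays against 228, 129 and 390 on the others. The groups did not overlap in any of these 7 genes, which adds little for genes picked because they passed (12.3% of all tested probe sets did so in this direction).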
